A study of Mus musculus with 89 samples.

Results

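The genes described here are 47 markers of dividing cells, from the licensing of replication origins to cytokinesis. They were given as a list, and each was read from 1 probe set, the one brightest on average across all 89 arrays. Of the 47, 46 had a probe set that names 1 gene, among 17097 genes so named, and 45 passed the filter on dim signals, among 15065 genes tested. Ccnb1, a cyclin that drives entry into mitosis, had no such probe set, and Kif2c, a kinesin that takes microtubules apart, was too dim on all but a few arrays to be tested.

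The study set lungs of wild-type C57BL/6 mice, of mice that lack surfactant protein D (SP-D-/-, a deletion of Sftpd) and of wild-type BALB/c mice beside each other after ozone, after an allergen, or after both. All mice were male, 7 to 8 weeks old, and RNA came from the left lung lobe, labelled as whole lung homogenate and read on GeneChip HT Mouse430PM arrays after NuGEN amplification. Controls breathed air for 2 h, and ozone groups breathed 3 ppm ozone for 2 h; both were taken 12 h later. The allergen was Aspergillus fumigatus (Af), given by intraperitoneal sensitization and intranasal challenge, and lungs were taken 24 h or 168 h after challenge with air, or 96 h or 168 h after challenge with ozone. C57BL/6, SP-D-/- and BALB/c had 6, 5 and 5 arrays in air, 6, 4 and 2 in ozone, 4, 6 and 5 at Af 24 h, and 5, 6 and 6 at Af 96 h with ozone. At Af 168 h they had 4, 5 and 6 with air and 6, 4 and 4 with ozone. The labels do not say whether any 2 arrays share an animal, so the p-values measure the spread between arrays. In these whole-lung samples, more dividing cells and more RNA per dividing cell cannot be told apart.

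The cell cycle runs through waves of gene expression. The Mcm proteins, Cdc6 and Cdc45 load and start the replicative helicase, and ribonucleotide reductase, thymidylate synthase and Pcna serve the DNA synthesis that follows; many of these genes are bound by E2F factors. Later, Cdk1 with its cyclins, the Aurora and Polo kinases, the spindle checkpoint, the kinesins and the cytokinesis proteins carry the cell through mitosis, and their promoters often hold a CHR element and CCAAT boxes. In the adult lung few cells divide, and after injury or allergen challenge epithelial, endothelial and immune cells can enter the cycle.

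Those 2 kinds of promoter can be read in the members' own sequences. RefSeq promoter windows of build GRCm38.p6, from 250 bases before to 50 after the annotated start, were matched by symbol for 41 of the 47 members, in 44 windows; Foxm1, Aurkb, Ccne2, Kif20a, Ccna2 and Tpx2 had none in the table. The 4 below were taken from 22 members, those with one of the 4 largest called changes in a direction in some comparison together with Mki67, Top2a, Mcm5 and Rrm2, as the 4 with most matches, with ties broken by E2F matches and then by name. They are shown because they set mitotic genes beside a licensing gene family. Capitals mark a match, on either strand, to an E2F motif (TTTCCCGC, TTTGGCGC, TTTCGCGC or TTTGCCGC), the CHR (TTTGAA) or CCAAT. Each reads 5′ to 3′ along its gene, and all 4 genes lie on the minus strand. Top2a, the topoisomerase that untangles chromosomes, spans chr11:99024140-99024439; Cdk1, the mitotic kinase, spans chr10:69352863-69353162; Mcm6, a subunit of the replicative helicase, spans chr1:128359656-128359955; and Mcm3, another subunit, spans chr1:20820263-20820562.
Top2a: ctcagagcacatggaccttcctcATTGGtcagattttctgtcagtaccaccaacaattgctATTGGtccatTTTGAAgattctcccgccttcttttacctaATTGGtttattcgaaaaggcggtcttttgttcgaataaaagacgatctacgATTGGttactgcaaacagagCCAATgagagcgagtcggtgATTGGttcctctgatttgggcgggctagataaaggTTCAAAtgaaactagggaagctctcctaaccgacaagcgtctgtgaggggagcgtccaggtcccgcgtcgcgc
Cdk1: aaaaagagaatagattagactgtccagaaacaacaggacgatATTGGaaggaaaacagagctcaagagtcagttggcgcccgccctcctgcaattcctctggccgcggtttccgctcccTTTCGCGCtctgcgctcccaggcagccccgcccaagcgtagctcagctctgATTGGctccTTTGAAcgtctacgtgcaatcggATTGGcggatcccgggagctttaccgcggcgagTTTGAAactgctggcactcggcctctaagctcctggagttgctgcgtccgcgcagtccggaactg
Mcm6: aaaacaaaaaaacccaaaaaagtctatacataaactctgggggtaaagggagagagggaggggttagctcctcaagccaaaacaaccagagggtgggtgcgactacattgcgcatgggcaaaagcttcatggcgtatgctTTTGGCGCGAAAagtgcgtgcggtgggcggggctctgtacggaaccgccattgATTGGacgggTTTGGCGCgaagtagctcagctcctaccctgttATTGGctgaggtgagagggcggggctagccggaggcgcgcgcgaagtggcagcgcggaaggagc
Mcm3: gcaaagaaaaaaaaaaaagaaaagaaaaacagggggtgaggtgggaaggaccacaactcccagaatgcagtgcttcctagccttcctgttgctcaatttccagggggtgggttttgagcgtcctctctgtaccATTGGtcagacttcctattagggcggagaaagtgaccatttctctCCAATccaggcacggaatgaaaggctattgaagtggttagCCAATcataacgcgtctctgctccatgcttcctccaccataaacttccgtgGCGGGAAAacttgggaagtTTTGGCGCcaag
Top2a held 2 CHR matches and 6 CCAAT matches but no E2F match, and Cdk1 held 1 E2F, 2 CHR and 3 CCAAT matches. Mcm6 held 3 E2F matches, 2 of which overlap each other, with 2 CCAAT matches and no CHR. Mcm3 held 2 E2F and 3 CCAAT matches, and its 2 E2F matches lie after the annotated start.

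Over the 30 windows of mitotic members, 76.7% held a CHR match, against 14.3% of the 14 windows of licensing and DNA synthesis members and 17.9% of all 32851 promoter windows. E2F matches went the other way, in 35.7% of the licensing and synthesis windows, 3.33% of the mitotic windows and 2.26% of all windows. CCAAT was found in 83.3% of mitotic, 71.4% of licensing and synthesis, and 37.4% of all windows. Of 32 CHR copies, 24 lay between 100 bases before the start and the end of the window. Ect2, Prc1 and Uhrf1 had 2 windows each, and those of Ect2 and Prc1 overlap. Some sites were therefore counted more than once, here and in the shares above. Positions over all promoter windows are not given. A match is a run of letters and not a tested binding site, and 7 members, Birc5 among them, had none of the 3 motifs in this window.

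**Figure D1:**
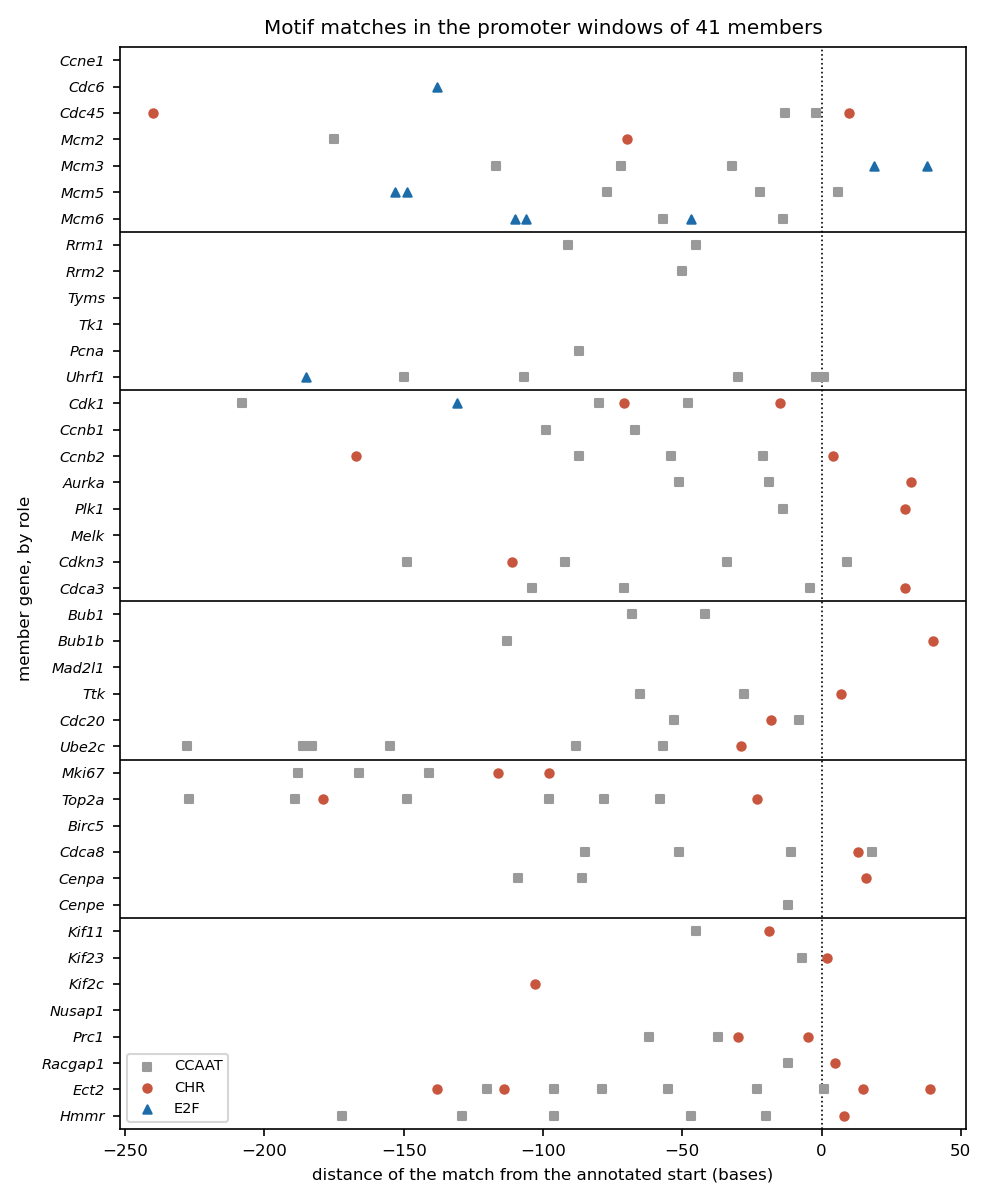
Distance of each E2F (triangles), CHR (circles) and CCAAT (squares) match from the annotated start, in bases, for 41 members grouped by role, licensing and DNA synthesis genes at the top. E2F matches are almost limited to the upper block, with Cdk1 as the 1 mitotic member that holds one, and CHR matches fill the lower blocks.

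The arrays differed in ways that touch many genes, members among them. The values are log2 levels deposited by the authors. The members' mean levels ran from 3.62 for Kif2c to 8.28 for Pcna, the sliding clamp of replication, and 6 members had a mean under the level used as the dim limit, 4.45. Levels of different genes are not comparable, because probe sets differ. Bacterial control RNAs added to every sample at hybridization (the spike level) were unequal between groups, from 8.59 ± 1.14 (SD, n = 6) in C57BL/6 ozone to 10.90 ± 0.45 (SD, n = 5) in C57BL/6 Af 96 h with ozone. Within groups, over the 89 arrays, the members' correlations with the spike level ran from -0.84 for Mcm5 and -0.77 for Mcm6 to 0.80 for Hmmr and 0.83 for Kif11. Over all genes tested, the lower and upper tail percentiles (the 5th from each end) were -0.70 and 0.74. Strong correlations with the spike level were therefore not particular to the members. The 3' minus 5' signal of beta-actin, a sign of RNA integrity and amplification, ran from 1.43 to 2.34 over the 16 air arrays and from 2.10 to 3.79 over the 17 Af 96 h with ozone arrays. Of 20 epithelial and endothelial markers, 14 stayed above the dim limit on every array, the epithelial gene Sftpc at 10.19 or higher; Foxj1 was under it on 17 arrays, Emcn on 6 and Epcam, Krt19, Cdh5 and Tek on 1 each.

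On 6 arrays Sftpd or strain marker genes went against the label. C57BL/6 Af 168 h with ozone replicate 5 was only at the border of the rule. BALB/c Af 24 h replicates 4 and 5 were found by Sftpd alone, at 8.79 and 7.68 against a limit of 9. Their strain marker genes lay on the BALB/c side, so replicate 4 was close to the border too. The labelled BALB/c Af 24 h replicate 5 stood furthest apart. Its members' median was 7.10, against at most 6.05 on any other array, and 25 of the 46 members were higher there than on every array outside BALB/c Af 24 h replicates 4 and 5. On that array the imprinted growth regulator Dlk1 stood at 10.45, against at most 5.77 on the 87 arrays other than replicates 4 and 5, and Sftpc stood at 10.19, against at least 11.21. The allergen comparisons are therefore given from a pair of fits, and those of strains in air, of ozone alone and of strain responses at 24 h and 168 h from the fit of group means. The fit of group means is the planned one. The spike-adjusted fit adds the spike level as a covariate and leaves out the 6 arrays. Both are limma models with adjusted p-values (Benjamini-Hochberg over the 15065 genes), and a call means adjusted p under 0.05. Values given with the spike term or after spike adjustment come from the spike-adjusted fit, so both changes apply to them.

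Without allergen the members lay low and close together in all 3 strains. Their median on an array ran from 4.58 to 5.05 over the 16 air arrays and from 4.73 to 5.16 over the 12 ozone arrays. After allergen it ran from 4.98 to 7.10 over the 15 Af 24 h arrays, from 5.29 to 6.05 over the 17 Af 96 h with ozone arrays, from 4.86 to 6.00 over the 15 Af 168 h arrays and from 4.92 to 5.77 over the 14 Af 168 h with ozone arrays. The Af 96 h with ozone arrays lay wholly above all ozone and air arrays. At Af 24 h the same was true of 14 of the 15 arrays, at 5.18 or above. The exception at 4.98 was BALB/c replicate 4, 1 of the 6 arrays, found by Sftpd alone and close to its limit. At Af 168 h, with air or ozone, some arrays lay within the range of air or ozone.

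**Figure D2:**
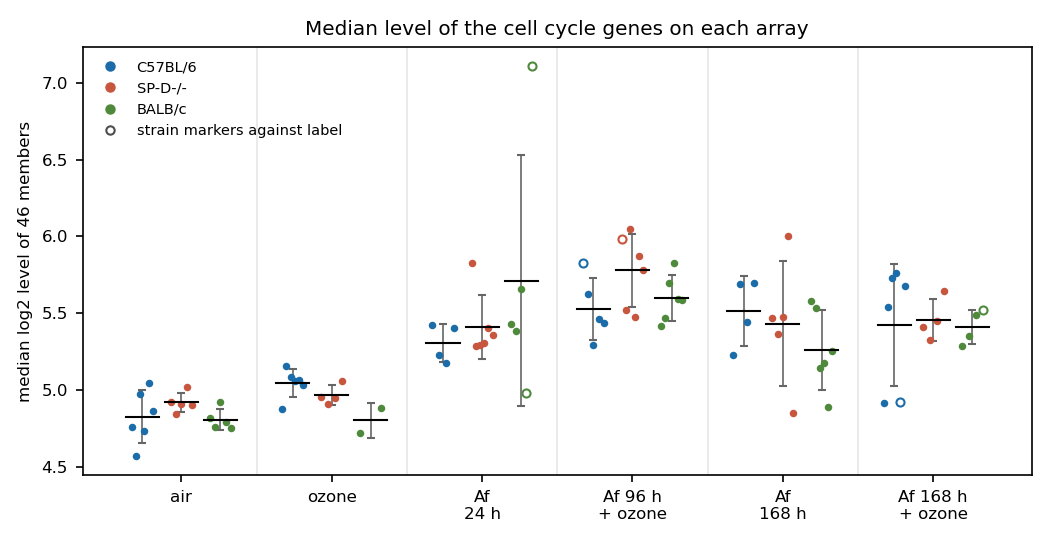
Median log2 level of the 46 members on each array, by exposure, with group mean (black bar) and SD (grey bar). Points are coloured by strain, and open points are the 6 arrays whose Sftpd or strain markers go against the label. The 17 Af 96 h with ozone arrays, at 5.29 to 6.05, lie above the 12 ozone arrays, at 4.73 to 5.16, and 1 BALB/c Af 24 h array stands alone at 7.10.

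In air the strains did not separate on any member. No member was called between SP-D-/- and C57BL/6, where 0.0664% of all genes were, or between BALB/c and C57BL/6, where 0.511% were. Mki67, the antigen Ki-67 that marks cycling cells, had a lowest, median and highest level of 5.89, 6.15 and 7.22 in C57BL/6, read 6.38, 6.74, 6.53, 6.66 and 6.43 in SP-D-/-, and read 6.15, 5.62, 6.34, 6.74 and 6.51 in BALB/c. The ranges overlap, and 1 C57BL/6 array stood above all others. The changes against C57BL/6 were 0.27 ± 0.33 (SE) in SP-D-/- and -0.01 ± 0.33 in BALB/c for Mki67, 0.64 ± 0.54 and 0.18 ± 0.54 for Top2a, 0.22 ± 0.38 and 0.25 ± 0.38 for Mcm5, and 0.09 ± 0.37 and 0.25 ± 0.37 for Rrm2, the regulated subunit of ribonucleotide reductase.

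Ozone alone, 12 h after exposure, called no member in any strain by limma. The background was as low, at 0.0266% of all genes in C57BL/6, 0.0996% in SP-D-/- and 0.0133% in BALB/c. The members' median change was 0.17 in C57BL/6, -0.01 in SP-D-/- and 0.01 in BALB/c. At an unadjusted p under 0.05 (limma) there were 1, 3 and 0 members, with no share of all genes given at that limit. Mki67 changed by 0.30 ± 0.31 (SE), 0.63 ± 0.37 and 0.01 ± 0.46 in the same order, Mcm5 by 0.70 ± 0.36, -0.01 ± 0.42 and 0.09 ± 0.52, and Rrm2 by 0.09 ± 0.35, -0.33 ± 0.41 and -0.04 ± 0.51. Top2a changed by 0.18 ± 0.51, -1.20 ± 0.59 and 0.15 ± 0.74; the negative value in SP-D-/- came from 2 ozone arrays, at 4.62 and 3.33, below the other 2, at 6.09 and 5.85. With 2 BALB/c ozone arrays the precision there was the lowest of the series.

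At 24 h after allergen, genes that license and copy DNA rose in all 3 strains in the spike-adjusted fit, along with Birc5. That fit called 11 members higher in C57BL/6, 6 in SP-D-/- and 7 in BALB/c, and none lower, where 7.4%, 3.48% and 5.31% of all genes were called higher. Mcm2, Mcm3 and Mcm5, helicase subunits, and Birc5 (survivin, of the chromosomal passenger complex) were called in all 3 strains. By role, 4, 3 and 3 of the 8 licensing members and 4, 2 and 1 of the 6 DNA synthesis members were called in C57BL/6, SP-D-/- and BALB/c, 3, 1 and 2 of the 7 chromosome and centromere members, 0, 0 and 1 of the 9 mitotic cyclins, kinases and their regulators and none of the 15 spindle checkpoint, spindle and cytokinesis members.

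The fit of group means gave another picture, with 8, 1 and 16 members called higher and none lower, against backgrounds of 6.4%, 1.6% and 3.92% of all genes. Its calls leaned on mitotic genes in BALB/c, where 4 of the 6 checkpoint members were among the 16. Without the arrays that go against their label, and with no spike term, BALB/c had 6 calls. Leaving out replicate 5 alone gave 7. Without BALB/c air replicate 2 there were 10. In C57BL/6 the 8 calls fell to 2 without Af 24 h replicate 1, 3 without Af 24 h replicate 4 or air replicate 4, 4 without air replicate 2 or 6 and 5 without air replicate 1 or 3. The 1 call in SP-D-/-, Mcm3, was lost without Af 24 h replicate 5 or 6 or air replicate 2 or 3, and there were 2 calls without Af 24 h replicate 2. The spike-adjusted fit called 7 members in C57BL/6 without Af 24 h replicate 1, and in SP-D-/- and BALB/c its counts stayed between 5 and 7.

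Birc5 read 6.63, 6.65, 6.29 and 7.36 in C57BL/6 Af 24 h, against a lowest, median and highest of 4.60, 5.20 and 6.03 in air. All 4 allergen arrays lay above all 6 air arrays. The change was 1.41 ± 0.47 (SE; adjusted p = 0.0299, limma) in the fit of group means and 1.67 ± 0.36 (adjusted p = 0.000691) in the spike-adjusted fit. In SP-D-/- the lowest, median and highest Af 24 h levels were 6.74, 6.94 and 7.19, above air at 5.31, 5.48, 6.00, 6.04 and 6.00, with a spike-adjusted change of 1.38 ± 0.33 (adjusted p = 0.0041). In BALB/c it read 7.53, 6.07, 7.46, 4.90 and 9.60 against air at 5.29, 5.24, 5.55, 5.5 and 4.95, where the array at 4.90, replicate 4, lay below every air array.

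Mcm5 shows how much a member can depend on the fit. In C57BL/6 Af 24 h it read 3.64, 5.79, 3.63 and 5.28, so 2 arrays lay above the highest air array, at 4.42, and 2 lay within the air range. Its change was 0.57 ± 0.40 (SE; adjusted p = 0.314, limma) in the fit of group means and 1.13 ± 0.20 (adjusted p = 6.46e-05) with the spike term. The spike-adjusted changes were 0.74 ± 0.19 (adjusted p = 0.0065) in SP-D-/- and 1.64 ± 0.22 (adjusted p = 5.54e-07) in BALB/c. Mcm3 in SP-D-/- needed no such term: all Af 24 h arrays, with a lowest, median and highest of 5.75, 6.15 and 6.49, lay above air at 4.84, 5.08, 5.37, 5.56 and 5.28, and the change was 0.92 ± 0.26 (adjusted p = 0.0225, limma).

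Mcm2 rose by 1.63 ± 0.41, 1.32 ± 0.38 and 1.46 ± 0.46 (SE; adjusted p = 0.0043, 0.0205 and 0.031, limma) in the 3 strains after spike adjustment, and none of the 3 was called in the fit of group means. Uhrf1, which couples DNA methylation to replication, rose in C57BL/6 by 1.35 ± 0.39 (adjusted p = 0.0138). Mki67 rose in C57BL/6, from a median of 6.15 in air to 6.95, 7.20, 7.94 and 7.78 (1.19 ± 0.35, adjusted p = 0.0157), and in BALB/c, to 7.84, 7.51, 8.04, 8.14 and 8.94, all above air (1.82 ± 0.34, adjusted p = 0.000214). In SP-D-/- it changed by 0.91 ± 0.33 (adjusted p = 0.1).

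Rrm2 and Top2a were less clear at 24 h. Rrm2 rose in SP-D-/- with the spike term, by 1.14 ± 0.32 (SE; adjusted p = 0.0174, limma), and changed by 0.25 ± 0.35 in C57BL/6 and 0.75 ± 0.39 in BALB/c. Top2a was not called in any strain in either fit, with changes of 0.09 ± 0.57, 0.05 ± 0.54 and 0.82 ± 0.56 in the fit of group means. In BALB/c its arrays ran from 3.75 on replicate 4 to 9.15 on replicate 5. The spindle genes Tpx2 (2.01 ± 0.48, adjusted p = 0.0033) and Kif11 (1.81 ± 0.57, adjusted p = 0.0263), among the largest BALB/c rises in the fit of group means, were not called after spike adjustment, at 1.35 ± 0.49 and 0.83 ± 0.37. In C57BL/6 the same held for the centromere genes Cenpa (1.38 ± 0.50, adjusted p = 0.0469) and Cenpe (1.23 ± 0.40, adjusted p = 0.0278), at 0.75 ± 0.29 and 0.84 ± 0.35. Cdca8 (borealin), a partner of Birc5, rose in C57BL/6 only with the spike term, by 1.29 ± 0.38 (adjusted p = 0.0134).

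**Figure D3:**
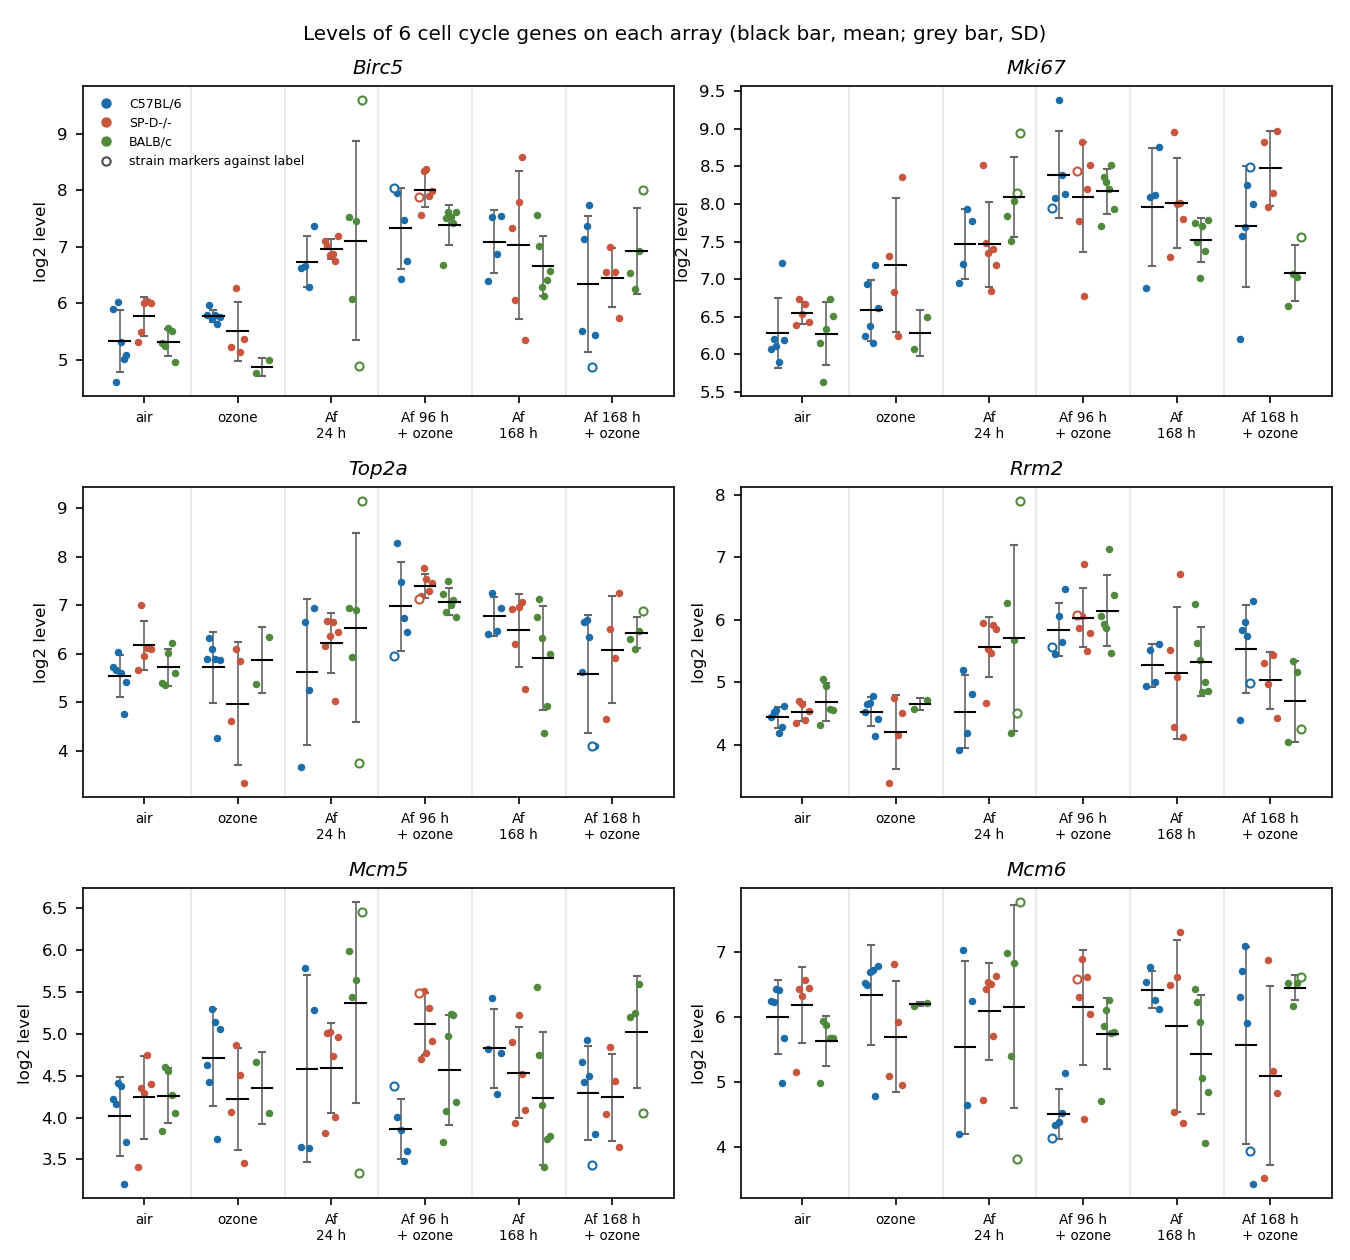
Log2 level of Birc5, Mki67, Top2a, Rrm2, Mcm5 and Mcm6 on each array, by exposure and strain, with mean (black bar) and SD (grey bar). Open points are arrays whose Sftpd or strain markers go against the label. Birc5 and Rrm2 stand high in all 3 strains in Af 96 h with ozone, and the C57BL/6 means of Mcm5 and Mcm6 there are the lowest of the 18 groups.

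At 96 h after allergen with ozone, most of the members called belonged to mitotic roles. Against ozone alone the spike-adjusted fit called 15 members higher in C57BL/6, 12 in SP-D-/- and 4 in BALB/c, and none lower, against 10.4%, 1.85% and 0.166% of all genes higher. Birc5 and Cdk1 were called in all 3 strains. Of the 31 members of the 4 mitotic roles, 13 were called in C57BL/6, 11 in SP-D-/- and 4 in BALB/c, and of the 8 licensing members, none. The labels hold no allergen group at 96 h with air, so the allergen is read here only on top of ozone.

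The fit of group means called 17 members higher and 2 lower in C57BL/6, where 17.2% of all genes were higher and 19.2% lower, 13 higher in SP-D-/-, where 2.36% were, and none in BALB/c, where 0.0531% of all genes were called in either direction. In C57BL/6 a large share of all genes moved, so its calls stand against a wide background; in SP-D-/- the background was low. The members' median change was 0.69, 0.87 and 0.71 in C57BL/6, SP-D-/- and BALB/c, beside medians of all genes of 0.00, 0.11 and 0.04. In BALB/c 17 members had an unadjusted p under 0.05 (limma), all higher. The share of all genes at that unadjusted limit is not given, so this count has no background beside it. The 13 calls in SP-D-/- came down to 4 without ozone replicate 5, to 6 without ozone replicate 2 or 4 or allergen replicate 1 or 3, and to 7 without allergen replicate 5, and the spike-adjusted fit called 7 there without ozone replicate 5.

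Top2a had a lowest, median and highest level of 7.13, 7.37 and 7.77 in SP-D-/- Af 96 h with ozone, against 4.62, 6.09, 5.85 and 3.33 in ozone. No array overlapped. The change was 2.42 ± 0.57 (SE; adjusted p = 0.00938, limma), and 2.06 ± 0.44 (adjusted p = 0.00399) with the spike term. Without ozone replicate 5, the array at 3.33, the adjusted p was 0.206 in the fit of group means. In C57BL/6 it read 5.95, 8.28, 7.47, 6.73 and 6.45 against a range of 4.26 to 6.32, with changes of 1.26 ± 0.54 (adjusted p = 0.0574) and, spike-adjusted, 2.56 ± 0.46 (adjusted p = 4e-05). In BALB/c the change was 1.21 ± 0.72. A further probe set of Top2a did not follow: within groups its correlation with the one used was -0.53, and in SP-D-/- it changed by -1.16 (adjusted p = 0.354, limma over all probe sets).

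Rrm2 read 5.57, 5.45, 6.07, 5.65 and 6.49 in C57BL/6, above ozone at 4.14, 4.59 and 4.78 (lowest, median and highest). It rose by 1.31 ± 0.37 (SE; adjusted p = 0.00473, limma) there and by 1.84 ± 0.39 (adjusted p = 0.00342) in SP-D-/-. In BALB/c all 6 allergen arrays, from 5.46 to 7.13, lay above both ozone arrays, at 4.58 and 4.72, and the change of 1.49 ± 0.50 was not called (adjusted p = 0.579).

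Birc5 had the largest called change of a member in SP-D-/-. It had a lowest, median and highest of 7.56, 7.95 and 8.37 against 5.23, 6.27, 5.14 and 5.36 in ozone, a change of 2.51 ± 0.47 (SE; adjusted p = 0.000859, limma). In C57BL/6 it read 8.04, 7.94, 6.43, 7.47 and 6.74, above ozone at 5.64 to 5.96, a change of 1.55 ± 0.44 (adjusted p = 0.00501). In BALB/c, 6.68, 7.52 and 7.61 (lowest, median and highest) stood above 4.76 and 4.98, a change of 2.52 ± 0.59 (adjusted p = 0.0746), called with the spike term at 2.70 ± 0.45 (adjusted p = 0.000155). The BALB/c calls rest on 2 ozone arrays: without ozone replicate 1 the spike-adjusted fit called no BALB/c member, and without ozone replicate 3 it called 1.

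Cdk1 in C57BL/6 read 7.22, 7.53, 7.16, 7.13 and 6.55, above ozone at 5.35, 5.48 and 5.84, and rose by 1.59 ± 0.29 (SE; adjusted p = 3.36e-05, limma). Its spike-adjusted changes were 1.69 ± 0.29, 1.49 ± 0.28 and 1.62 ± 0.34 in C57BL/6, SP-D-/- and BALB/c. Ccna2, cyclin A2, rose with the spike term by 2.22 ± 0.42 (adjusted p = 9.17e-05) in C57BL/6 and 2.27 ± 0.48 (adjusted p = 0.0127) in BALB/c. Ect2, the exchange factor that starts cytokinesis, read 7.23, 6.13, 7.11, 7.68 and 6.56 in C57BL/6, above ozone at 5.05 to 5.85 (1.52 ± 0.41, adjusted p = 0.00346). The checkpoint gene Mad2l1 rose in SP-D-/- by 1.5 ± 0.29 with the spike term (adjusted p = 0.00138).

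Mki67 was called in C57BL/6, at 7.95, 8.09, 9.38, 8.39 and 8.14 against 6.14, 6.5 and 7.19 (lowest, median and highest) in ozone (1.81 ± 0.33 (SE), adjusted p = 2.75e-05, limma). In SP-D-/- the ozone arrays themselves reached 8.36, the groups overlapped, and the change was 0.91 ± 0.35 (adjusted p = 0.143). In BALB/c the change was 1.89 ± 0.44 (adjusted p = 0.0746), called with the spike term (1.74 ± 0.41, adjusted p = 0.043). The checkpoint kinase gene Ttk and the centromere kinesin Cenpe rose in C57BL/6 by 1.81 ± 0.53 (adjusted p = 0.00638) and 1.75 ± 0.38 (adjusted p = 0.000296); with the spike term Ttk was at 0.69 ± 0.44 and not called.

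In the fit of group means 2 members were called lower in C57BL/6, both of the licensing role. Mcm6 read 4.14, 4.34, 4.38, 4.52 and 5.14 in C57BL/6 Af 96 h with ozone, against 4.78, 6.61 and 6.78 (lowest, median and highest) in ozone, and fell by 1.82 ± 0.55 (SE; adjusted p = 0.00778, limma). Ccne2, cyclin E2, fell by 1.24 ± 0.45 (adjusted p = 0.0271). Neither call was kept in the spike-adjusted fit, at -0.04 ± 0.38 and -0.21 ± 0.40. That fit also leaves out replicate 1 of this group, whose mean spike level was the highest of the series. What made the calls go was not tested. Mcm5 changed by -0.85 ± 0.38 there (adjusted p = 0.0669) and by 0.18 ± 0.22 with the spike term. In SP-D-/- and BALB/c Mcm5 changed by 0.89 ± 0.40 and 0.21 ± 0.51, and was not called.

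**Figure D4:**
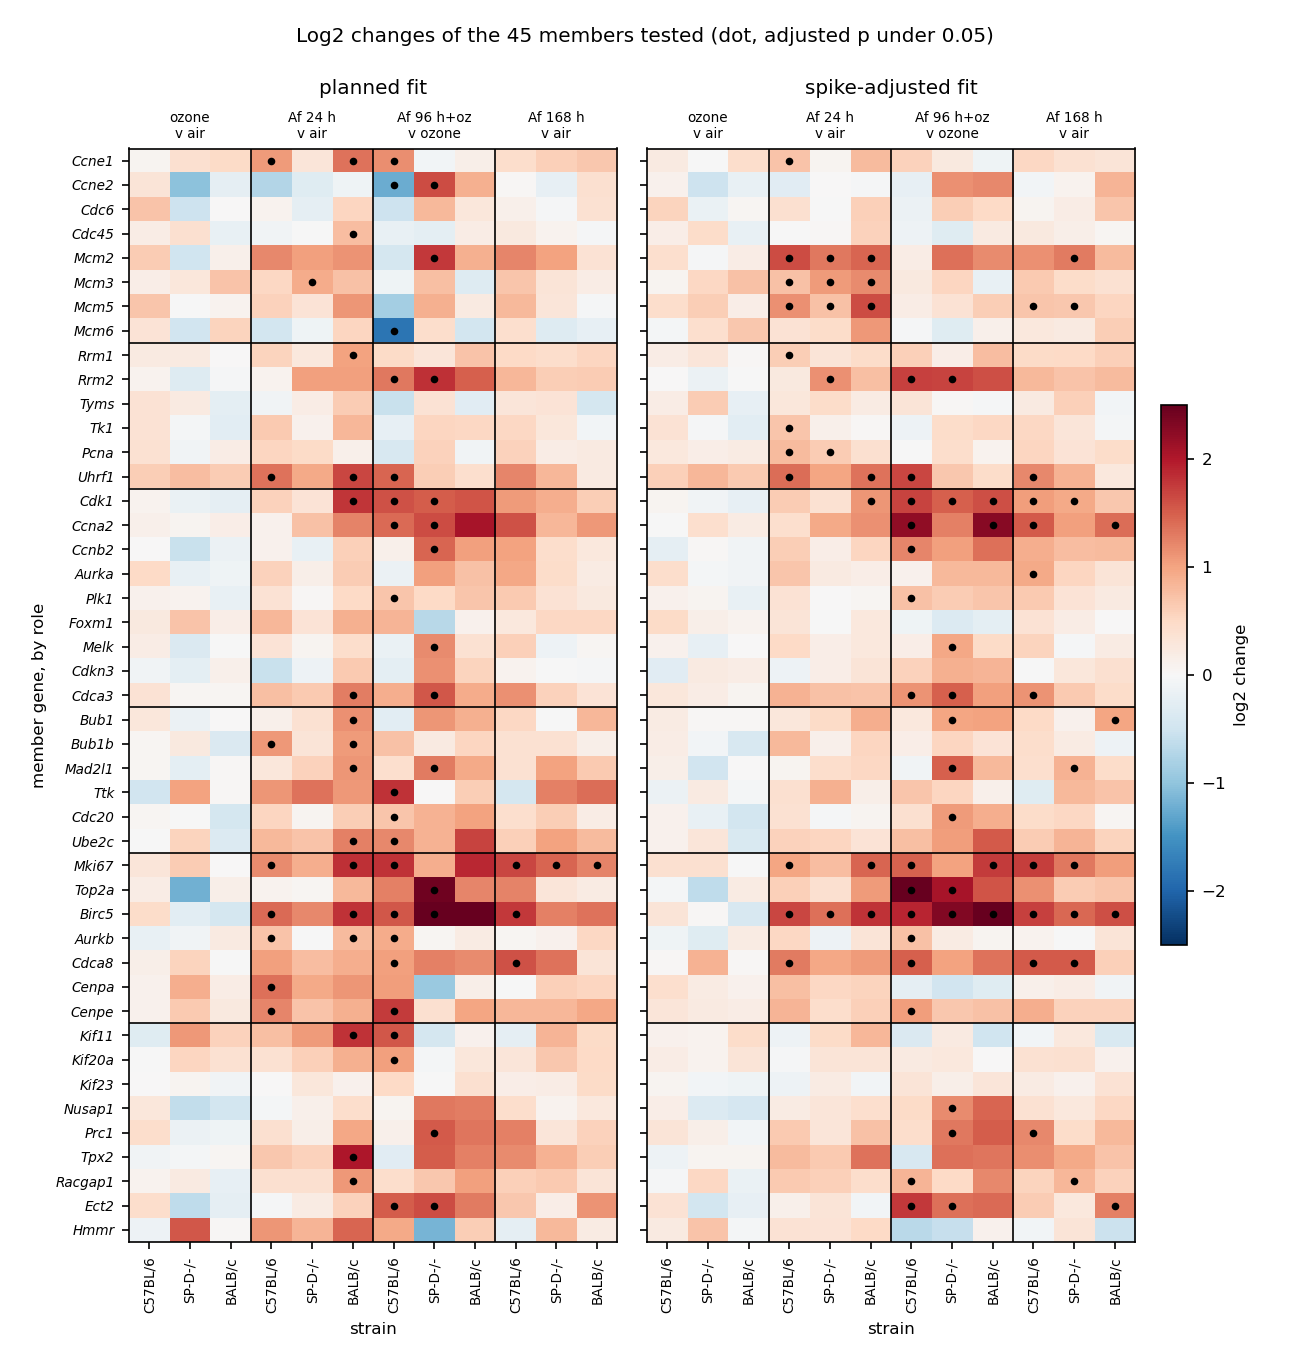
Log2 change of each of the 45 members tested (rows, by role) in 4 comparisons of each strain (columns), in the fit of group means (left, headed planned fit) and the spike-adjusted fit (right); dots mark adjusted p under 0.05. On the right, most 24 h dots lie in the upper roles or on Mki67, Birc5, Cdca8 and Cdk1, most 96 h dots lie in the lower roles, and the 2 falls called on the left, Mcm6 and Ccne2, carry no dot.

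The change at 96 h with ozone was set against the change at 24 h as a difference of responses, the first minus the second. These contrasts were added after the values had been seen. In C57BL/6, spike-adjusted, 3 members were called higher at 96 h, against 3.96% of all genes, and 1 lower, against 1.73%: Top2a by 1.96 ± 0.59 (SE; adjusted p = 0.0341, limma), Ccna2 by 1.80 ± 0.55 (adjusted p = 0.0336), Ect2 by 1.64 ± 0.52 (adjusted p = 0.0434) and Mcm5 by -0.95 ± 0.28 (adjusted p = 0.03). No member was called in SP-D-/- or BALB/c in that fit. There 10 and 9 members had an unadjusted p under 0.05 (limma), beside 1717 and 724 of all 15065 genes. The fit of group means called none in C57BL/6 or BALB/c and 1 in SP-D-/-, Melk, a mitotic kinase (1.12 ± 0.33, adjusted p = 0.0459), where 2.04% of all genes were higher. Time after challenge and ozone change together in this contrast and cannot be told apart.

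At 168 h after allergen with air, fewer members were called than in the 2 earlier allergen groups of C57BL/6. The fit of group means called 3 members higher in C57BL/6 and 1 each in SP-D-/- and BALB/c, none lower, against 1.09%, 0.757% and 0.81% of all genes higher. The spike-adjusted fit called 10, 8 and 4, against 3.68%, 2.98% and 1.36%. Birc5 was called in all 3 strains in the latter fit and Mki67 in all 3 in the former. The median change of the members was 0.57, 0.47 and 0.39, with 41, 39 and 39 of the 45 above 0, while the medians of all genes were 0.07, 0.05 and -0.03.

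Mki67 read 6.87, 8.09, 8.12 and 8.76 in C57BL/6 Af 168 h, where only the first lay within the air range of 5.89 to 7.22. It rose by 1.68 ± 0.35 (SE; adjusted p = 0.00323, limma). In SP-D-/- it read 7.29, 8.96, 8.01, 8.01 and 7.80, all above air, a rise of 1.46 ± 0.34 (adjusted p = 0.0168), and in BALB/c its lowest, median and highest were 7.02, 7.60 and 7.79, all above air (1.25 ± 0.33, adjusted p = 0.0298). With the spike term the BALB/c change was 1.04 ± 0.31 (adjusted p = 0.0573). In C57BL/6 the adjusted p rose to 0.0706 without Af 168 h replicate 6; in SP-D-/- and BALB/c the highest over the arrays left out were 0.0798 and 0.123.

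Birc5 read 6.40, 7.53, 6.87 and 7.55 in C57BL/6, all above air, and rose by 1.76 ± 0.47 (SE; adjusted p = 0.0323, limma). Over the 10 arrays left out in turn its adjusted p ran from 0.0152 to 0.186 and was over the limit for 7, with Af 168 h replicates 3, 4 and 6 and air replicates 2, 4, 5 and 6. In SP-D-/- the 5 arrays spread widely, at 7.34, 6.06, 7.80, 8.59 and 5.34, and overlapped with air; the spike-adjusted change was 1.43 ± 0.35 (adjusted p = 0.00904). Cdca8 rose in C57BL/6 by 1.59 ± 0.39 (adjusted p = 0.0164). In BALB/c the spike-adjusted fit added Ccna2 (1.40 ± 0.37, adjusted p = 0.024), Ect2 (1.26 ± 0.35, adjusted p = 0.0329) and the checkpoint kinase Bub1 (0.99 ± 0.27, adjusted p = 0.0289). Top2a, Rrm2 and Mcm5 were not called in the fit of group means, with changes of 1.23 ± 0.57, 0.83 ± 0.39 and 0.81 ± 0.40 in C57BL/6, 0.31 ± 0.56, 0.62 ± 0.39 and 0.30 ± 0.40 in SP-D-/-, and 0.20 ± 0.54, 0.64 ± 0.37 and -0.03 ± 0.38 in BALB/c. Single arrays weighed heavily. In the fit of group means the 3 calls in C57BL/6 went to 0 without Af 168 h replicate 6, 1 without replicate 3 or 4 and 5 without replicate 2. The SP-D-/- call was lost without air replicate 3 or Af 168 h replicate 5, with 3 calls without Af 168 h replicate 6, and the BALB/c call was lost without air replicate 1, 2 or 3 or Af 168 h replicate 4 or 6. The spike-adjusted counts in C57BL/6 were 3, 4 and 6 without Af 168 h replicates 6, 4 and 3. In SP-D-/- they were 1 and 5 without Af 168 h replicates 5 and 4, and 2, 3, 4 and 5 without air replicates 2, 4, 3 and 6. In BALB/c they were 1 without air replicate 1 or Af 168 h replicate 6 and 2 without air replicate 3, 4 or 6 or Af 168 h replicate 2.

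Set directly against 24 h, members were called at 168 h in BALB/c. No member was called in C57BL/6 or SP-D-/-, where 0.186% and 1.36% of all genes were. In BALB/c 3 members fell, against 1.61% of all genes: Uhrf1 by 1.46 ± 0.37 (SE; adjusted p = 0.0119, limma), Cdk1 by 1.17 ± 0.29 (adjusted p = 0.0111) and Cdc45 by 0.79 ± 0.25 (adjusted p = 0.0461). None of the 3 was called without Af 24 h replicate 5, and 5 or 6 members were called without Af 24 h replicate 4 or 1 or Af 168 h replicate 1. In C57BL/6 there was 1 call without Af 24 h replicate 3 or 6. The spike-adjusted fit called Mcm5 (-1.11 ± 0.22, adjusted p = 0.00157) and Kif11 (-1.22 ± 0.36, adjusted p = 0.0474) lower, against 1.1% of all genes, and Ect2 higher (1.34 ± 0.40, adjusted p = 0.0496), against 1.47%. Whether BALB/c differed from the other strains in this step was not tested. Mki67 changed by 0.49 ± 0.38, 0.55 ± 0.33 and -0.57 ± 0.33 in C57BL/6, SP-D-/- and BALB/c, Top2a by 1.14 ± 0.63, 0.26 ± 0.54 and -0.62 ± 0.54, and Rrm2 by 0.74 ± 0.43, -0.41 ± 0.37 and -0.38 ± 0.37.

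Ozone on top of allergen at 168 h moved no member in any strain in the fit of group means, where 0.0597%, 0.604% and 0.0199% of all genes were called in C57BL/6, SP-D-/- and BALB/c. The spike-adjusted fit called Mcm3 alone, in SP-D-/- (0.80 ± 0.24 (SE), adjusted p = 0.0496, limma), against 0.657% of all genes higher; it read 5.95, 4.80, 6.12, 6.01 and 4.87 with air and 6.24, 6.07, 5.70 and 6.80 with ozone, which overlap. Mki67 changed by -0.26 ± 0.35, 0.46 ± 0.37 and -0.44 ± 0.35 in C57BL/6, SP-D-/- and BALB/c, Top2a by -1.19 ± 0.57, -0.40 ± 0.59 and 0.52 ± 0.57, Mcm5 by -0.54 ± 0.40, -0.30 ± 0.42 and 0.79 ± 0.40, and Rrm2 by 0.27 ± 0.39, -0.12 ± 0.41 and -0.63 ± 0.39.

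**Figure D5:**
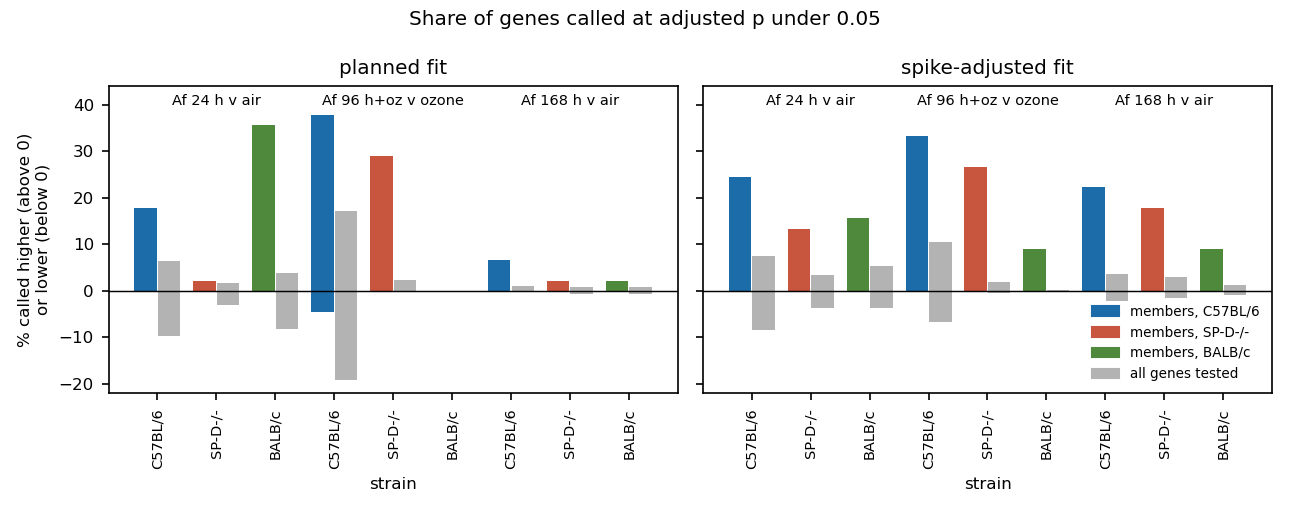
Percentage of the 45 members (coloured by strain) and of all 15065 genes tested (grey) called higher (bars above 0) or lower (bars below 0), for the allergen comparisons in the fit of group means (left, headed planned fit) and the spike-adjusted fit (right). The widest grey bars, 17.2% higher and 19.2% lower, are those of C57BL/6 at 96 h with ozone in the left panel, and members called lower, 2 of 45, appear only there.

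The question of SP-D, whether its absence changes the response, gave no member difference that held in both fits. The difference in response from C57BL/6 called no member at 24 h in SP-D-/- (0% of all genes) or BALB/c (0.0133%), nor at 168 h in SP-D-/- (0.00664%) or BALB/c (0%). For Mki67 these 4 differences were -0.28 ± 0.48 (SE), 0.64 ± 0.49, -0.21 ± 0.49 and -0.43 ± 0.48, for Top2a -0.04 ± 0.78, 0.72 ± 0.80, -0.92 ± 0.80 and -1.04 ± 0.78, for Mcm5 -0.22 ± 0.55, 0.54 ± 0.57, -0.52 ± 0.57 and -0.84 ± 0.55, and for Rrm2 0.94 ± 0.54, 0.93 ± 0.55, -0.21 ± 0.55 and -0.19 ± 0.54. Standard errors of this size leave large differences undetected. At 96 h with ozone, a contrast added after the values had been seen, the fit of group means called 13 members between SP-D-/- and C57BL/6, 9 higher in SP-D-/-, where 16.8% of all genes were higher, and 4 lower, where 10.6% were. Ccne2 (2.87 ± 0.66, adjusted p = 0.00321, limma), Mcm6 (2.27 ± 0.80, adjusted p = 0.0297), Mcm2 and Mcm5 were among the 9, and Hmmr (-2.12 ± 0.76, adjusted p = 0.0318) and Cenpa (-1.97 ± 0.69, adjusted p = 0.0278) among the 4. None of the 13 was called in the spike-adjusted fit. The members' median difference was 0.24 in the fit of group means and 0.03 in the spike-adjusted fit. The latter also leaves out replicate 1 of both Af 96 h with ozone groups, and the cause of the loss was not tested. BALB/c did not differ from C57BL/6 on any member at 96 h in either fit.

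Over the 9 allergen comparisons, which share their air and ozone arrays within a strain, Birc5 was called in 5 by the fit of group means and in all 9 by the spike-adjusted fit. Mki67 was called in 6 by each fit, and Cdk1 and Mcm5 in 6 and 5 by the spike-adjusted fit. Of the 45 members, 21 were above 0 in all 9 spike-adjusted changes, and 16 were never called, among them Tyms, Cdc6, Kif23 and Foxm1. With the beta-actin difference as a further covariate, members were counted in C57BL/6, SP-D-/- and BALB/c. The counts were 3, 4 and 4 at 24 h, 10, 14 and 1 at 96 h with ozone and 2, 4 and 2 at 168 h. The share of all genes called in that fit is not given.

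Genes of the same pathways outside the list were also called, in some comparisons at close to the share of all genes. With spike adjustment, examples are 3 of 45 other mitotic genes in BALB/c at 24 h, beside 5.31%. Another is 1 of 33 other replication genes in SP-D-/- at 168 h, beside 2.98%. Of 45 other mitotic genes, 5, 5 and 3 rose at 24 h in C57BL/6, SP-D-/- and BALB/c with spike adjustment, 10, 7 and 2 at 96 h with ozone and 8, 8 and 3 at 168 h, and none fell. Of all genes, 7.4%, 3.48% and 5.31% rose at 24 h, 10.4%, 1.85% and 0.166% at 96 h with ozone and 3.68%, 2.98% and 1.36% at 168 h in the same fit. Cks1b, a Cdk1 subunit, rose at 24 h by 1.67, 1.43 and 1.49 in the 3 strains. Cep55, which acts in abscission at the end of cytokinesis, rose at 96 h by 1.67 in C57BL/6, 2.89 in SP-D-/- and 2.86 in BALB/c. Of 33 other replication genes, 8, 3 and 6 rose at 24 h, and 6, 0 and 0 rose and 1, 0 and 0 fell at 96 h with ozone, with 5, 1 and 1 higher at 168 h. Cdc7, the kinase that fires origins, rose at 24 h by 1.07, 1.10 and 1.77, and Lig1, which joins Okazaki fragments, rose by 0.95 in C57BL/6 and 1.46 in BALB/c.

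Inhibitors and G1 regulators showed no common direction. Of 18 CDK inhibitors and antiproliferative genes, 3 rose and 3 fell in C57BL/6 at 24 h with spike adjustment, Gadd45b by 1.63 and Rb1 by -1.47 among them, where 7.4% of all genes rose and 8.3% fell; 2 rose and 1, Cdkn1b (p27), fell by 0.76 in BALB/c, where 5.31% rose and 3.68% fell. Of 14 G1 cyclins, CDKs and growth regulators, Ccnd3, cyclin D3, rose at 24 h by 1.05, 0.86 and 1.12 in C57BL/6, SP-D-/- and BALB/c, and Myc rose by 1.46 and 1.81 in C57BL/6 and SP-D-/-. Ccnd2, cyclin D2, fell by 2.01 in C57BL/6 at 96 h with ozone.

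Markers of other cell types moved in some of the same comparisons. With spike adjustment, 7 of 8 endothelial markers fell in C57BL/6 at 96 h with ozone, Tek by 3.29, and 5 of 8 fell in C57BL/6 at 168 h, where 6.72% and 2.1% of all genes fell. Of 8 mesenchymal markers, 3 fell in C57BL/6 at 24 h and 3 at 96 h, Dcn by 1.89 and 2.16. Of 12 epithelial markers, 4 rose in C57BL/6 at 96 h, where 10.4% of all genes rose, Epcam by 2.79. Krt8 rose at 24 h and 168 h in all 3 strains, and also after ozone alone in C57BL/6, by 0.92. Others fell at 24 h, while Krt18 rose by 0.66 in C57BL/6. Scgb1a1 changed by -0.58, -0.54 and -0.78 in C57BL/6, SP-D-/- and BALB/c, Foxj1 by -1.86 in SP-D-/- and Cldn18 by -1.01 in BALB/c. The mean log2 level of the 8 endothelial markers ran from 6.08 to 7.09 in C57BL/6 Af 96 h with ozone and from 8.5 to 8.92 in C57BL/6 ozone. In BALB/c Af 24 h it ran from 5.94 to 8.43, with replicates 4 and 5 included. In the spike-adjusted fit, which leaves those out, Cldn5 rose by 0.88 and Egfl7 by 0.53 there, and no endothelial marker was called lower. In C57BL/6 at 24 h Cldn5 rose by 0.82, while Pecam1 and Kdr changed by -1.01 and -0.85. In SP-D-/- Egfl7 changed by -0.66 at 96 h and Kdr by -0.82 at 168 h. Of 12 macrophage markers, at most 3 rose and at most 2 fell in any allergen comparison: Chil3, a chitinase-like protein, rose by 2.75, 3.16 and 3.30 in BALB/c at 24 h, 96 h and 168 h, where Adgre1 and Itgax also rose at 168 h, by 1.37 and 2.04. Siglecf, a marker of alveolar macrophages and of eosinophils, fell by 1.20 in BALB/c at 24 h, while the eosinophil marker Alox15 rose by 1.81. In C57BL/6 at 24 h these 2 genes changed by -0.86 and 2.04. The scavenger receptor Marco and the receptor kinase Mertk fell by 1.26 and 1.19 in C57BL/6 at 96 h. Among B and plasma cell markers, Jchain rose at 168 h by 3.50 in C57BL/6 and 4.36 in BALB/c, and was not called in SP-D-/-. None of 7 neutrophil markers was called in the 9 allergen comparisons of the spike-adjusted fit, and in the fit of group means Mmp9 fell by 1.72 (adjusted p = 0.00103, limma) in C57BL/6 at 96 h with ozone. With spike adjustment, 3 of 10 T cell markers rose in C57BL/6 at 24 h and at most 1 was called in any other allergen comparison. The part of these cell types in the members' changes was not tested.

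Further probe sets bear on single members. Of the 46 members, 24 had more than 1, and of the 34 further probe sets, 11 had a within-group correlation under 0 with the one used, in 8 members, Top2a, Tyms and Cenpa among them. For Cenpa the probe set used changed by -0.93 in SP-D-/- at 96 h with ozone and another by 1.69 (adjusted p = 0.31 and 0.0603, limma over all probe sets), so its direction is not settled. Each of 70 member probe sets was also tested on its own, in a fit of group means over 24212 probe sets. At 24 h 7, 1 and 24 rose in C57BL/6, SP-D-/- and BALB/c, where 5.35%, 1.15% and 3.18% of all probe sets did. At 96 h with ozone 22 rose and 2 fell in C57BL/6, where 14.6% and 20.9% of all did, 14 rose in SP-D-/-, where 1.66% did, and none was called in BALB/c. At 168 h 3, 1 and 1 rose, against 0.727%, 0.508% and 0.781%, and 6 fell from 24 h to 168 h in BALB/c, against 1.49%.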

How the data were processed

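The values are log2 levels per probe set, deposited by the authors for 89 arrays in 18 groups. The normalization and software behind them are not given in the sources used here. Levels ran from 1.86 to 13.5, with no spot signals or detection calls, so the number of arrays limits the precision. Of 45141 probe sets, 104 were controls and 28898 named 1 gene; 551 named several and 15692 none.

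Each gene was read from its probe set with the highest mean. Genes above the 40th percentile on at least 4 arrays were fitted as group means over all arrays with limma 3.58.1 (R 4.3.3), with Benjamini-Hochberg adjustment. The step was tested on simulated data. The spike-adjusted fit adds the mean of 10 hybridization control probe sets and leaves out 6 arrays, found by Sftpd (under 9 in wild-type strains, over 8 in SP-D-/-) or an index of 40 strain genes. It was chosen with the spike level known to vary.

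The members and lists were chosen with earlier results of these data known. Mki67, Top2a, Mcm5 and Rrm2 are given in every comparison, with the up to 4 called members of largest rise and of largest fall; the other members named, most genes named from other lists, and the choice between fits for a named value, were picked after their values were seen. Alternatives were cyclic loess, the mean of a gene's probe sets, no filter, only the groups compared, the replicate number as a block, the spike level, the 6 arrays, the beta-actin difference (chosen after seeing the data) and each array left out.

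Replicate numbers were checked for pairing. Same-numbered arrays deviated together in every pair only between C57BL/6 Af 168 h with ozone and Af 168 h. There the mean correlation over 4 pairs was 0.337, the lowest 0.262, and that of other pairs -0.0597. Elsewhere the same-number mean ran from -0.275 (ozone against air, BALB/c) to 0.266 (ozone against air, C57BL/6). For Af 168 h against Af 24 h it was 0.259 in BALB/c and 0.228 in C57BL/6. The labels do not say what the numbers share, so pairing in these comparisons is not settled. No 2 arrays held identical values.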

Additional observations from a re-analysis of the deposited data

Results flagged for a closer look

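In 102 groups tested over 6 measures, 6 held an array whose gap to the others was large for the group's range; chance gives about 1 in 20. The median of the members was 5.83 in SP-D-/- Af 24 h replicate 1, against 5.29 to 5.40 in the other arrays of that group. Mki67 stood at 7.22 in C57BL/6 air replicate 5, against 5.89 to 6.20. Top2a stood at 4.26 in C57BL/6 ozone replicate 5, against 5.87 to 6.32, and at 5.01 in SP-D-/- Af 24 h replicate 5, against 6.15 to 6.68. Rrm2 stood at 4.66 in SP-D-/- Af 24 h replicate 2, against 5.47 to 5.94. Birc5 stood at 6.68 in BALB/c Af 96 h with ozone replicate 1, against 7.42 to 7.61.

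Differences between responses were called on members in 3 tests, all added after the values had been seen. The response at 96 h with ozone differed from that at 24 h on 1 member in SP-D-/- in the fit of group means, where 2.04% of all genes were higher. In C57BL/6 it differed on 4 members in the spike-adjusted fit, 3 higher and 1 lower, where 3.96% and 1.73% of all genes were. The response at 96 h with ozone differed between SP-D-/- and C57BL/6 on 13 members in the fit of group means. Of these, 9 were higher, where 16.8% of all genes were, and 4 lower, where 10.6% were, which is near the share of all genes. None was called in the spike-adjusted fit, where 4 members had an unadjusted p under 0.05 (limma), beside 2076 of all 15065 genes.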

How the results depend on the processing

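Counts of members called in the fit of group means are given in the order C57BL/6, SP-D-/- and BALB/c. Except for the spike-adjusted fit, the share of all genes called under each alternative, or with an array left out, is not given. A changed count can therefore not be told from a change over all genes. At 24 h they were 8, 1 and 16. In SP-D-/- they became 2 with cyclic loess, 0 with the mean of probe sets, 7 with only the groups compared, 5 with the spike level, 3 without the 6 arrays, 6 with both and 4 with the actin difference added. In BALB/c they became 26 with the mean of probe sets, 3 with only the groups compared, 6 without the 6 arrays, 7 spike-adjusted and 4 with the actin difference, which gave 3 in C57BL/6. At 168 h they were 3, 1 and 1. Only the groups compared gave 19 in C57BL/6 and 7 in BALB/c, the spike level 5 and 3 in C57BL/6 and SP-D-/-, the 6 arrays left out 8, 5 and 2, the spike-adjusted fit 10, 8 and 4, and the actin difference 2, 4 and 2; cyclic loess gave 2 in SP-D-/- and the mean of probe sets 2 in BALB/c. At 96 h with ozone they were 19, 13 and 0. Cyclic loess gave 6 in SP-D-/- and 1 in BALB/c, the spike level 8 and 1, the actin difference 10 in C57BL/6 and 1 in BALB/c, and in BALB/c only the groups compared gave 4, the 6 arrays left out 3 and the spike-adjusted fit 4. For BALB/c at 168 h against 24 h the 3 calls became 7 with the mean of probe sets, 0 with only the groups compared, 11 with the spike level and 1 without the 6 arrays. Ozone added at 168 h gave 1 call in SP-D-/- spike-adjusted, with or without the actin difference. The cause was not tested.

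With the replicate block the 3 and 1 calls at 168 h in C57BL/6 and SP-D-/- became 5 and 2, and the 3 in BALB/c at 168 h against 24 h became 5; it moved no other count by over 1.5 times and kept all 27 named gene changes. In C57BL/6 at 168 h with ozone against without, the comparison with the highest same-number correlation, there were 0 calls with and without it.

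Leaving out 1 array gave 2 to 10, 0 to 2 and 7 to 19 calls at 24 h, 0 to 5, 0 to 3 and 0 to 1 at 168 h, 16 to 25, 4 to 17 and 0 at 96 h with ozone, and 0 to 1 in C57BL/6 and 0 to 6 in BALB/c for 168 h against 24 h. In the spike-adjusted fit it gave 7 to 12, 5 to 7 and 5 to 7 at 24 h, 3 to 15, 1 to 8 and 1 to 5 at 168 h, and 11 to 15, 7 to 12 and 0 to 6 at 96 h with ozone. Of 27 named gene changes, 15 kept their call in the spike-adjusted fit and 12 with the actin difference, where Mcm6 in C57BL/6 at 96 h with ozone changed sign, from -1.82 to 0.072 (SE 0.40; adjusted p = 0.938, limma). Members near the dim limit are measured with little signal over background.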
